A study of Scophthalmus maximus with 8 samples.

Results

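Some stretches of turbot chromatin were called open at every stage of development, with peaks that were wide in the larva and narrow both in the embryo and in the juvenile. These larval-wide regions numbered 477 of the 25400 regions that held exactly 1 peak in each of the 4 stage lists (1.88%, 95% Wilson interval 1.72 to 2.05), and 477 of all 114193 regions of the joined lists. They were selected on peak width. Peaks of the 4 lists that overlapped by at least 1 bp were joined into regions, and a region with 1 peak of each stage was taken when its 15dph and its 23dph peak were each at least 15% wider than both its 3dpf and its 37dph peak. The 37dph peak also had to be more than 0.6 times as wide as the 3dpf peak and less than 25% wider. The measured widths thus chose the members and are given as a description.

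The lists come from an ATAC-seq study of turbot (Scophthalmus maximus), a flatfish, with 2 biological replicates at each of 4 stages (8 samples). The phylotypic embryo was taken at 3dpf (dpf, days post fertilization). Fish before metamorphosis were taken at 15dph (dph, days post hatching), at its climax at 23dph and after it at 37dph. At 3dpf the whole animal was sampled, freed from its chorion with pronase, and at the 3 later stages the rear of the body behind the cloaca was removed. Cells were released with collagenase, for a longer time at each later stage, so stage and dissociation time cannot be told apart. The sampled part changed only between 3dpf and the later stages, and there it cannot be told apart from stage either. Each stage is represented by 1 consensus peak list of its 2 replicates, so no error between replicates and no test could be computed, and every difference below is a description of these lists. In stage order the lists held 94714, 57611, 47853 and 46248 peaks. The lists carry no read counts, and the mapped reads that the study states for each library were not used here. No genome sequence of the assembly used, ASM1334776v1, was used here, so the regions are given by position, without sequence or genes.

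In ATAC-seq, the Tn5 transposase cuts DNA that is not wrapped around nucleosomes, and a peak marks a stretch where cuts pile up above the local background. Such stretches are mostly promoters, enhancers and other sites bound by regulatory proteins, and the summit of a peak is the position with most cuts. Metamorphosis of flatfishes is driven by thyroid hormone and turns a symmetrical swimming larva into a bottom-living juvenile with both eyes on 1 side. In material of many tissues, a wider opening in the same cells and a change in the mix of cells cannot be told apart.

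Among the shared regions, larval peaks at least 15% wider were uncommon against 3dpf and more frequent against 37dph. Of the 25400 single-peak regions, 13.2% had a 15dph peak at least 15% wider than the 3dpf peak, and 44.0% had one at least 15% wider than the 37dph peak. For the 23dph peak the shares were 8.71% against 3dpf and 31.2% against 37dph. By the rule, all 477 members met these 4 conditions. Both larval peaks were wider than both outer ones by any margin in 3376 regions and by at least 15% in 536. The limits on the ratio of 37dph to 3dpf width removed 59 of these, 18 at the lower and 41 at the upper limit. The opposite shape, with both outer peaks at least 15% wider than both larval peaks and the same limits, was held by 202 regions. These counts describe the called widths, and whether widths follow the depth of the lists was not tested. With each width divided by the median over the single-peak regions of its stage, an alternative chosen after the data were seen, the rule found 440 regions, of which 253 were among the 477.

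In stage order, their median peak widths were 228, 325, 313 and 204 bp. The middle 50% of the members spanned 189 to 291 bp in the embryo, 259 to 452 and 250 to 431 bp in the larval lists, and 176 to 265 bp in the juvenile. The other 24923 single-peak regions had medians of 260, 247, 232 and 210 bp at the same stages. At 37dph the members were thus close to the other regions, and at 3dpf they were narrower. The widest peak among the members measured 800, 1021, 994 and 641 bp in stage order. Between stages, the median ratio of widths within a member was 1.35 for 15dph over 3dpf, 1.48 for 15dph over 37dph, 1.31 for 23dph over 3dpf and 1.43 for 23dph over 37dph.

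**Figure D1:**
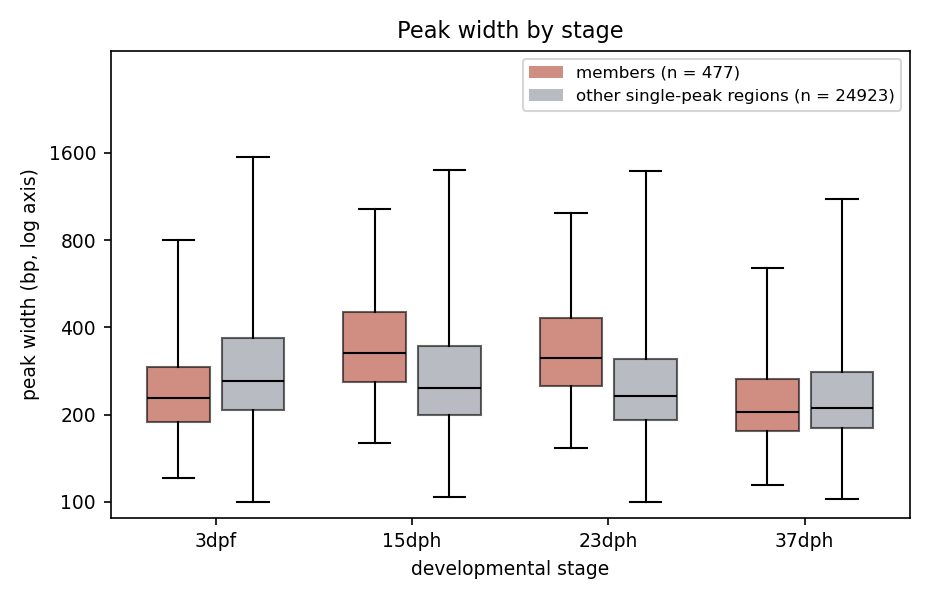
Peak width in bp (log axis) at the 4 stages for the 477 members and for the 24923 other single-peak regions. Boxes span the quartiles around the median and whiskers reach the lowest and highest value. The medians of the members were 228, 325, 313 and 204 bp from 3dpf to 37dph.

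The size of the larval widening varied among the members. For each member the smaller of its 15dph and 23dph widths was divided by the larger of its 3dpf and 37dph widths, and this larval ratio had a median of 1.24 (interquartile range 1.18 to 1.34) and a highest value of 3.18. It was at least 1.5 in 55 members and at least 2 in 10. The pre-metamorphic peak was the wider of the larval pair in 277 members (58.1%, 53.6 to 62.4), the climax peak in 192 (40.3%, 35.9 to 44.7), and both were equal in 8. The 37dph peak was narrower than the 3dpf peak in 325 members and wider in 144. Neither lean was particular to the members. The median width ratio of 23dph over 15dph was 0.981 in members and 0.954 in the other single-peak regions. For 37dph over 3dpf, a ratio that the rule limited, it was 0.940 and 0.856. The threshold did not fall in a gap of the values. The members just inside it lay on chromosome 15 from 6057411 to 6057803, with widths of 206, 393, 237 and 195 bp from 3dpf to 37dph, on chromosome 1 from 30112879 to 30113111 (157, 206, 208 and 179 bp) and on chromosome 4 from 6137986 to 6138302 (232, 316, 267 and 190 bp). Just outside it were regions on chromosome 13 from 616127 to 616448 (247, 306, 284 and 246 bp), on chromosome 6 from 17003565 to 17003812 (188, 245, 238 and 207 bp) and on chromosome 7 from 26095539 to 26095907 (274, 315, 364 and 255 bp).

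The members with the largest larval ratios are described by their edges. They were picked by that ratio and do not stand for the whole set. On the ASM1334776v1 assembly, the largest ratio among the 269 members with a global Irreproducible Discovery Rate (IDR) of at most 0.01 in all 4 lists was found on chromosome 14 from 4863942 to 4864530. The global IDR of a peak is the expected share of peaks that do not repeat between replicates, among all peaks ranked at least as high. This limit was met in all 4 lists by 56.4% of the members (51.9 to 60.8) and 72.0% of the other single-peak regions (71.4 to 72.5). IDR comes from the same peaks as the widths, so nothing is read from this difference. The peaks of the chromosome 14 region were 261, 579, 589 and 235 bp wide in stage order, and its larval ratio was 2.22. Its left edge moved outward by 1 bp at 15dph against 3dpf, while its right edge moved outward by 317 bp. At 23dph against 37dph the left edge was 21 bp and the right edge 333 bp further out. The 15dph summit lay 1 bp from the 3dpf summit.

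The next regions by this ratio had the same form. A region on chromosome 20 from 17055637 to 17056193 had widths of 231, 541, 483 and 165 bp, and its right edge lay 326 bp further out at 15dph than at 3dpf. On chromosome 19, a region from 19436795 to 19437370 had widths of 236, 576, 460 and 231 bp and gained 292 bp on the right and 48 bp on the left at 15dph against 3dpf. Both were extended on the right, as were 7 of the 10 members with the largest ratio, including those on chromosome 18 from 6919107 to 6919573 and on chromosome 21 from 12894498 to 12894929. That site had widths of 192, 395, 396 and 215 bp, and its larval right edges lay within 1 bp of each other, at 296 and 297 bp from the 3dpf summit. Another on chromosome 19, from 16055720 to 16056258, gained 281 bp on the right at 15dph against 3dpf, and the 23dph edge was 263 bp further out than at 37dph. On chromosome 2 from 3142386 to 3143011 the right edge was 231 bp further out at 15dph than at 3dpf, and 355 bp further out at 23dph than at 37dph.

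The other 3 of the 10 were extended on the left. On chromosome 14 from 22868499 to 22868812 the left edge moved outward by 136 bp at 15dph against 3dpf and the right edge moved inward by 7 bp. On chromosome 18 from 18492372 to 18492811 the left gain was 183 bp, against 12 bp on the right. On chromosome 12 from 5924885 to 5925240 it was 131 bp, against 13 bp on the right. The larval ratio of these 10 members ranged from 1.70 to 2.22. A larger ratio, 3.18, was held by a member outside the naming rule because of its higher IDR, named after its values were seen. It lay on chromosome 12 from 14511472 to 14512090 and had widths of 168, 607, 547 and 172 bp. It gained on both sides at 15dph against 3dpf, 299 bp on the left and 140 bp on the right, and its rank in the 3dpf list was low (percentile 3.34).

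**Figure D2:**
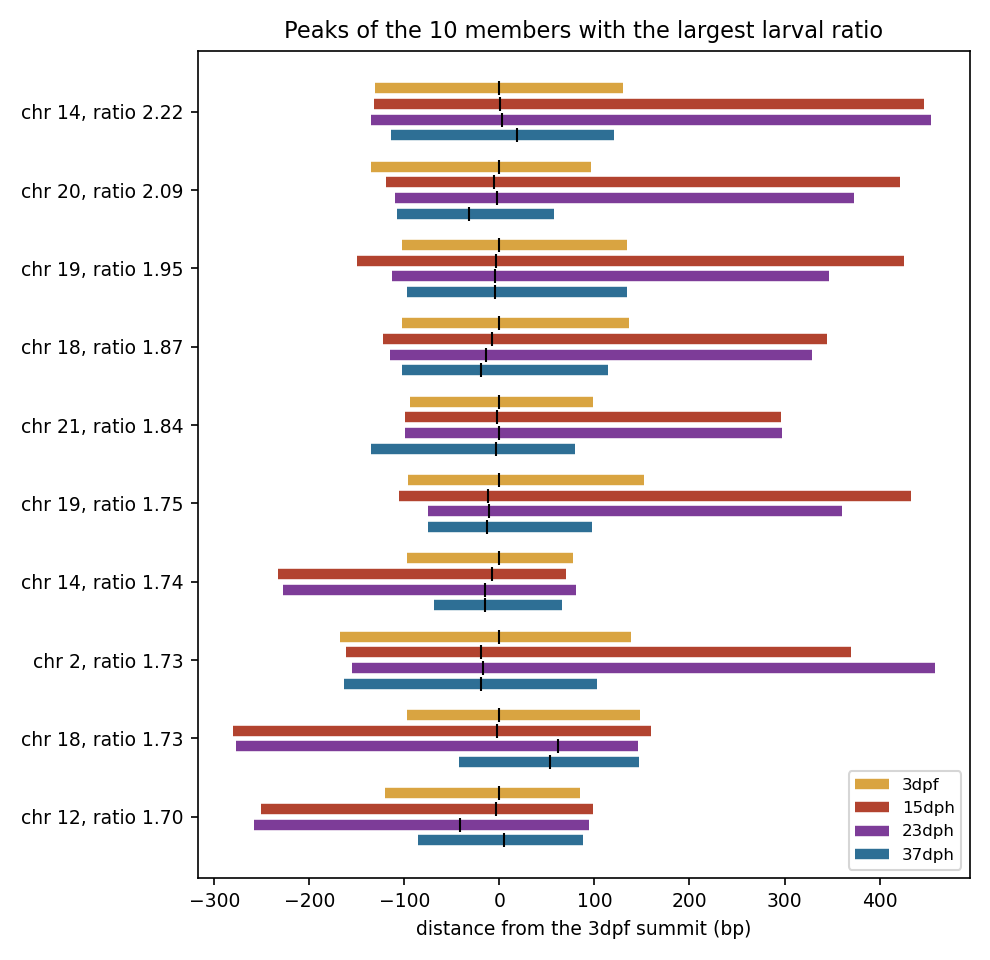
Called peaks of the 10 members with the largest larval ratio among those with a global IDR of at most 0.01 in all lists, drawn to scale as distance in bp from the 3dpf summit. Each bar is 1 peak of 1 stage and each tick its summit. In 7 members the larval peaks reach further to the right and in 3 to the left, while the opposite edges moved by at most 48 bp at 15dph against 3dpf.

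Over the whole set, most members gained on both sides, but by unequal amounts. Both edges lay further out in 65.6% of the members at 15dph against 3dpf, 78.4% at 15dph against 37dph, 60.8% at 23dph against 3dpf and 73.6% at 23dph against 37dph. In the other regions these shares were 16.8%, 50.4%, 10.3% and 38.4%, and the rule selected for a gain in all 4. At 15dph against 3dpf, the side that gained more was extended by a median of 76 bp (interquartile range 43 to 155) and the other by 7 bp (-3 to 20). At 23dph against 37dph the medians were 78 bp (47 to 153) and 9 bp (0 to 22). The larger side gained at least 100 bp in 198 members at 15dph against 3dpf, and also in 198 members at 23dph against 37dph, or 41.5% of the members in each, against 3.70% and 7.63% of the other regions. At 15dph against 3dpf, members with a higher ratio had more bases added on the larger side but not on the smaller side. In the 167 members with a ratio below 1.2, the larger side gained a median of 47 bp and the smaller side 8 bp. In the 55 members with a ratio of at least 1.5, the larger side gained 219 bp and the smaller side 5 bp. At 15dph against 37dph the smaller side gained 10 bp in the lowest and 18 bp in the highest class. The classes were cut by a ratio of the same widths, so a rise of the added bases with the class follows from the cut. The larger of a pair of values always exceeds the smaller, so nothing is read from this split alone.

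**Figure D3:**
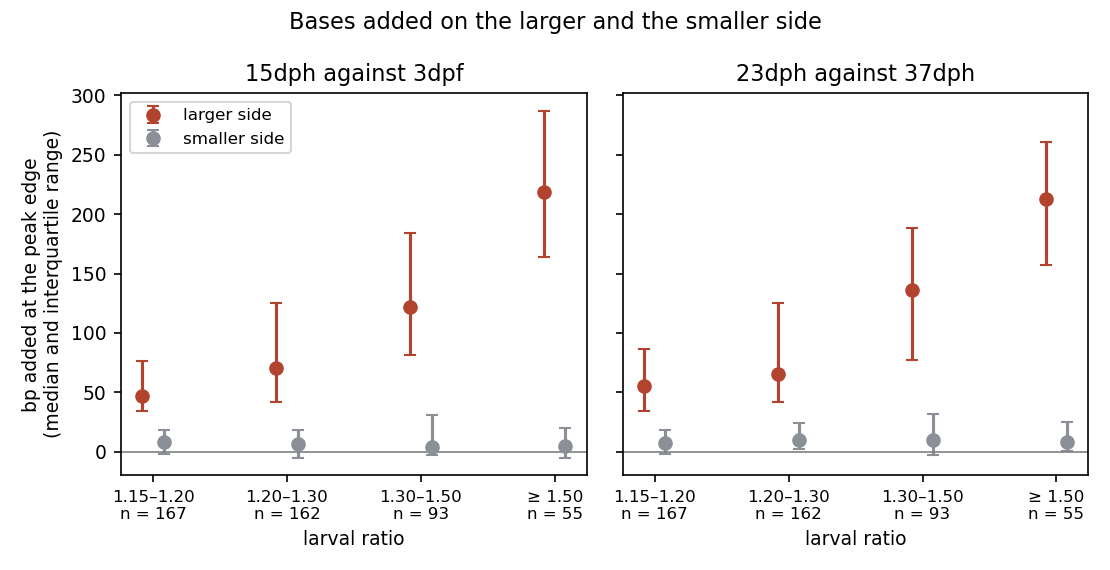
Bases added at the peak edges of the members in 4 classes of larval ratio, at 15dph against 3dpf and at 23dph against 37dph. Points are medians and bars interquartile ranges for the side that gained more and the side that gained less. The classes were cut by a ratio of the same widths. The larger side gained 47 bp in the lowest and 219 bp in the highest class at 15dph against 3dpf, and the smaller side 8 and 5 bp.

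The side of the extension was therefore taken from a pair of lists and read in the other pair, which shares no sample with it. The rule used the widths of both pairs. On the side that 15dph had extended against 3dpf, the 23dph edge lay a median of 64 bp further out than the 37dph edge (interquartile range 34 to 143, 476 members with a larger side). On the opposite side it lay 14 bp further out (2 to 35). The edge was further out on the extended side in 455 of the 476 members (95.6%, 93.4 to 97.1) and on the opposite side in 371 (77.9%, 74.0 to 81.4). Among the other regions with a larger side these shares were 59.6% and 63.7%. The rule fixed that the 2 sides together had to gain at 23dph, but not how the gain was divided. The other regions met no such condition, so the height of these shares is not compared between them and the members. In the other single-peak regions the corresponding medians were 5 bp on the side favoured at 15dph and 7 bp on the opposite side.

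In 365 of 474 members with a larger side in both comparisons (77.0%, 73.0 to 80.6), the side that gained more was the same at 15dph against 3dpf as at 23dph against 37dph. With the lists paired the other way, 15dph against 37dph and 23dph against 3dpf, it was the same in 364 of 473 (77.0%, 73.0 to 80.5). In the other single-peak regions, many of which did not widen, the shares were 46.6% (45.99 to 47.25) and 42.1% (41.5 to 42.7). In those non-members whose larval peaks were both wider than both outer peaks, but not by 15%, and that met the same limits, the shares were 58.8% (56.9 to 60.7) and 56.4% (54.5 to 58.3). Among the members with a ratio of at least 1.5 the side was the same in 48 of 55 (87.3%, 75.98 to 93.7) in either pairing. In the first pairing the share was 75.3% for ratios below 1.2, 72.5% from 1.2 to below 1.3 and 81.7% from 1.3 to below 1.5. These classes were cut by a ratio of the same widths, so nothing is read from the differences between them. In the other regions the side that gained more at 15dph against 3dpf gained a median of 4 bp, and the part of such small movements in these shares was not tested. Neither direction along the chromosome prevailed. At 15dph against 3dpf the left side gained more in 242 members and the right side in 234.

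**Figure D4:**
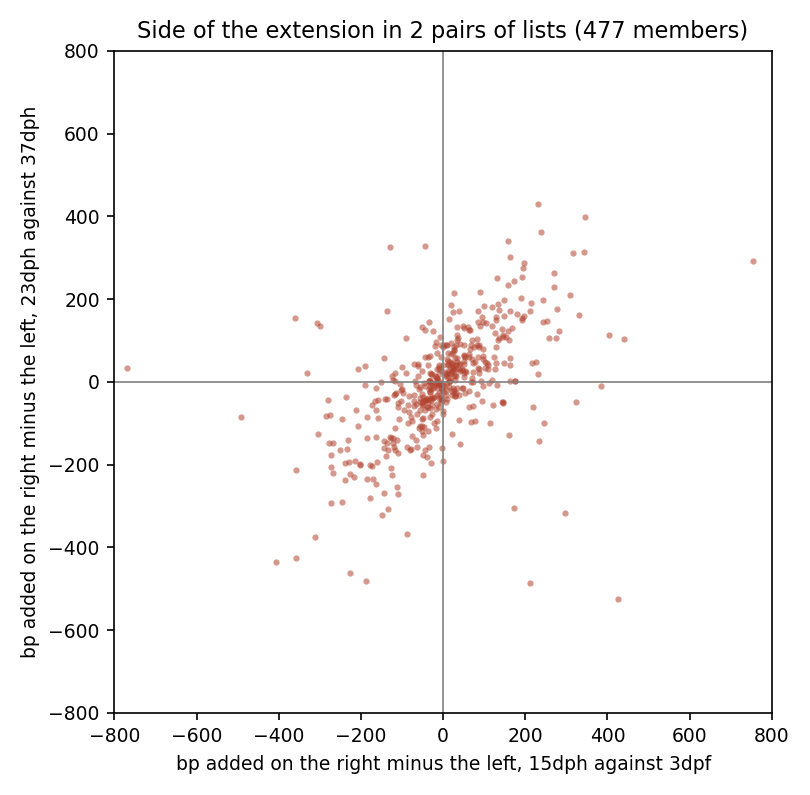
Bases added on the right minus bases added on the left for each of the 477 members, at 15dph against 3dpf (x axis, bp) and at 23dph against 37dph (y axis, bp). Each point is 1 member, and lines mark equal gain on both sides. Points to the lower left and upper right of the lines are the 365 members with the same side in both comparisons.

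The edges of the larval peaks were compared with each other, and likewise those of the outer peaks. On the extended side the edges of the 15dph and 23dph peaks differed by a median of 21.5 bp, and those of the 3dpf and 37dph peaks by 20 bp, against the 64 bp between the 23dph and 37dph edges. On the opposite side the medians were 10 and 15 bp. In the other single-peak regions they were 12 and 16 bp on the extended side and 11 and 26 bp on the opposite side. Larval edges near each other were thus not particular to the members. The rule selected for a gap between the 23dph and 37dph edges.

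Summits moved little. Between 15dph and 3dpf the summits of a member lay a median of 10 bp apart, against 8 bp in the other single-peak regions. Between 23dph and 37dph the medians were 11 bp in members and 10 bp in the others, and between 37dph and 3dpf they were 12 bp in both. In the members with a ratio of at least 1.5 it was 8 bp for 15dph and 3dpf, although their 15dph peaks had a median width of 467 bp against 236 bp at 3dpf. Summits more than 100 bp apart were found in 19 members for 15dph and 3dpf (3.98%, 2.56 to 6.14), and in 2.78% (2.59 to 3.00) of the other regions. For 37dph and 3dpf, the pair whose widths had to be similar, they were found in 36 members (7.55%, 5.50 to 10.3) and in 4.24% (3.99 to 4.49) of the other regions. The larval peaks were more lopsided around the summit. The shorter flank, from the summit to the nearer edge, had medians of 97, 116, 111 and 91 bp in stage order. The longer flank had medians of 128, 212, 194 and 113 bp. As a share of the peak, the shorter flank had medians of 44.4%, 36.7%, 38.0% and 44.4%. In the other regions it stayed between 43.4% and 44.4% at all stages. The rule chose wide larval peaks and no comparison at equal width was made, so lopsidedness and width cannot be told apart here.

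Peak strength followed the widths only in part. The rank of each peak by −log10 p was expressed as a percentile of its own list, with 100 for the strongest peak, which does not depend on the scale of the list but does depend on its length and content. In stage order, the median ranks of the members were 53.9, 68.8, 63.5 and 53.6. The other single-peak regions had 75.96, 72.8, 67.5 and 66.3. The members were thus furthest below the other regions at 3dpf and 37dph. A higher rank at 15dph than at 3dpf was found in 347 members (72.7%, 68.6 to 76.5) and in 45.1% (44.5 to 45.7) of the other regions. A higher rank at 23dph than at 37dph was found in 302 members (63.3%, 58.9 to 67.5) and in 52.9% (52.2 to 53.5) of the others. The rank was highest at 15dph in 185 members (38.8%, 34.5 to 43.2), at 23dph in 112 (23.5%), at 3dpf in 92 (19.3%) and at 37dph in 88 (18.4%). In the other regions 3dpf came first, with 41.3%, while 15dph had 21.3%, 23dph 13.0% and 37dph 24.4%. Since the lists differ in length, the peaks were also ranked among the 25400 single-peak regions alone, the same regions at every stage, an alternative chosen after the data were seen. The median ranks of the members were then 25.3, 43.5, 44.4 and 34.6 in stage order, against 50.5, 50.2, 50.1 and 50.3 in the other regions. The rank was higher at 15dph than at 3dpf in 346 members (72.5%, 68.4 to 76.4) and 51.5% of the other regions, and at 23dph than at 37dph in 299 members (62.7%, 58.3 to 66.9) and 50.02% of the others. Rank comes from the same peaks as width, so these values are no independent evidence for a larval rise. Across the 477 members, Spearman's rho of width with rank was 0.599, 0.177, 0.065 and 0.245 in stage order, as a description over peaks that share their libraries. In the other regions it was 0.624, 0.473, 0.466 and 0.351. The members were chosen by these same widths, so nothing is read from the difference between them and the other regions.

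**Figure D5:**
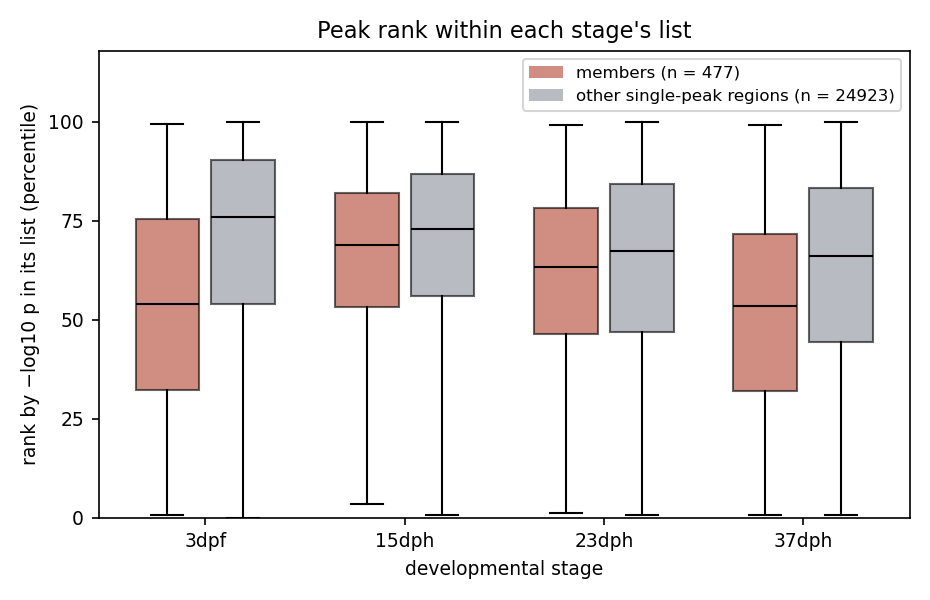
Rank of the peaks by −log10 p within the list of their stage (percentile, 100 for the strongest peak) for the 477 members and for the 24923 other single-peak regions. Boxes span the quartiles around the median and whiskers reach the lowest and highest value. The medians of the members were 53.9, 68.8, 63.5 and 53.6 from 3dpf to 37dph.

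The fold enrichment over the local background is a measure of peak height. The rule required a change of width and set no condition on fold enrichment, so the sizes of their changes are not compared. In stage order, the median fold enrichments of the members were 5.25, 5.18, 5.20 and 4.84. In the other single-peak regions it was 6.43, 5.43, 5.38 and 5.44. Within a member, the median ratio was 0.981 for 15dph over 3dpf (interquartile range 0.839 to 1.14) and 1.07 for 23dph over 37dph (0.913 to 1.23). The corresponding ratios in the other regions were 0.852 and 1.01. The fold enrichment was higher at 15dph than at 3dpf in 221 members (46.3%, 41.9 to 50.8) and in 21.2% of the other regions. Unlike the rank, it was most often highest at 3dpf, in 175 members (36.7%, 32.5 to 41.1). It was highest at 23dph in 117 (24.5%), at 37dph in 97 (20.3%) and at 15dph in 88 (18.4%). In the other regions 3dpf also came first by this measure, with 61.0%. There 23dph had 10.1%, 37dph 22.5% and 15dph 6.46%. In the 55 members with a larval ratio of at least 1.5, the medians were 5.06, 4.83, 5.10 and 4.53. Both larval medians of these members lay above that of 37dph, and only the 23dph median lay above that of 3dpf. The other regions also had their highest median at 3dpf.

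The share of members varied with the width and rank of the outer peaks. Single-peak regions were divided into 5 classes of about equal size by the larger of their 3dpf and 37dph widths. In the class up to 202 bp, 149 of 5156 regions were members (2.89%, 2.47 to 3.38), and in the class from 418 bp on, 40 of 5054 (0.791%, 0.582 to 1.08). By rank in the 3dpf list, the share was 3.99% (3.49 to 4.56) in the weakest and 0.591% (0.414 to 0.842) in the strongest class. By rank in the 37dph list it was 3.19% in the weakest and 0.886% in the strongest. By rank in the 15dph list the share was between 2.01% and 2.17% in the 4 weaker classes and 1.00% (0.764 to 1.32) in the strongest. The rule used the outer and larval widths, and rank comes from the same peaks, so nothing is read from these gradients. A global IDR of at most 0.01 was reached by 362 members (75.9%, 71.9 to 79.5) at 3dpf and by 439 (92.0%, 89.3 to 94.1) at 15dph. It was reached by 409 (85.7%, 82.3 to 88.6) at 23dph and by 349 (73.2%, 69.02 to 76.9) at 37dph. Among the other regions the shares were 91.8%, 93.9%, 86.5% and 85.1% in stage order. IDR comes from the same peaks too, so nothing is read from these differences. The lists hold peaks up to a global IDR of 0.1.

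Strong members existed as well. The strongest in all stages at once, by its lowest rank, lay on chromosome 7 from 12862747 to 12863211. Its ranks were 97.8, 98.2, 98.2 and 99.1 from 3dpf to 37dph, its fold enrichments 11.7, 9.78, 9.98 and 10.1, and its widths 335, 393, 430 and 277 bp. It widened little, with a larval ratio of 1.17. The next lay on chromosome 10 from 23279127 to 23279770, with ranks of 95.4, 97.2, 98.4 and 96.8 and widths of 366, 607, 616 and 385 bp. Its right edge was 219 bp further out at 15dph than at 3dpf and 259 bp further out at 23dph than at 37dph, while the left edge moved by 22 bp outward and 28 bp inward. On chromosome 19 from 14552382 to 14552871 the widths were 414, 484, 479 and 302 bp and the ranks 97.7, 98.3, 98.6 and 95.4. On chromosome 12 from 417586 to 418246 the widths were 489, 630, 606 and 392 bp, with a gain of 172 bp on the left at 15dph against 3dpf. Another, on chromosome 11 from 24004883 to 24005504, had widths of 354, 617, 553 and 289 bp. It gained 268 bp on the left at 15dph against 3dpf and 279 bp at 23dph against 37dph, and its rank of 99.9 at 15dph was the highest of all members in any list. Extension on 1 side was therefore also found in peaks far above the reporting limit.

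The members stood more alone than the other shared regions. The gap from a member to the nearest other region of the joined lists had a median of 1099 bp (interquartile range 377 to 2850), against 645 bp (172 to 1994) for the other single-peak regions. Another region lay within 500 bp of 140 members (29.4%, 25.4 to 33.6) and of 44.6% (43.99 to 45.22) of the other regions. A region whose wide peak overlapped 2 peaks of another list was outside the single-peak class by the rule, and the part of this in the difference was not tested. The nearest region was open at 3dpf alone for 163 members (34.2%, 30.1 to 38.5) and for 26.1% (25.6 to 26.7) of the other regions. It was open at all 4 stages for 131 members (27.5%, 23.6 to 31.6) and for 37.7% (37.1 to 38.3) of the others. A nearest region open at 15dph alone was found for 30 members (6.29%, 4.44 to 8.84) and 3.66% (3.43 to 3.90) of the others. For 23dph alone it was 8 members (1.68%, 0.852 to 3.27) and 1.91% (1.74 to 2.08) of the others. For 37dph alone it was 29 members (6.08%, 4.27 to 8.60) and 4.69% (4.43 to 4.96) of the others. In members, the median gap was 3098 bp on the side extended at 15dph against 3dpf and 2652 bp on the opposite side. Around the other regions it was 1890 and 2095 bp. A peak that reached a neighbouring region was joined with it and could leave the single-peak class. The part of this in the split by side was not tested either.

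The members were scattered over the genome. All 477 lay on numbered chromosomes and each of the 22 held some, from 9 of 695 single-peak regions on chromosome 21 (1.29%, 0.683 to 2.44) to 24 of 962 on chromosome 14 (2.49%, 1.68 to 3.69). The interval of every chromosome held the overall share of 1.88% (22 of 22). Of the 455 pairs of successive members on a chromosome, 8 were under 10000 bp apart and 27 under 50000 bp, with a median distance of 673400 bp. No such distances were computed for other regions, so whether close pairs were few or many cannot be read. The closest pair was 102 bp apart on chromosome 22. Its members ran from 1185377 to 1185625, with widths of 197, 249, 241 and 188 bp, and from 1185728 to 1185952, with widths of 134, 195, 217 and 163 bp.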

How the data were processed

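ATAC-seq peak lists of 4 turbot stages were analysed, 1 per stage from 2 replicates. The authors aligned reads with Bowtie2 to ASM1334776v1, set reads to the Tn5 cut site, used nucleosome-free fragments, called peaks with MACS2 and combined replicates by IDR. The deposited lists give start, end and summit, a score (scaled from the global IDR), a fold enrichment (a ratio over local background), and −log10 p and −log10 q values (q not used). The sample descriptions name 1 list for the replicate pair of every stage. For 23dph, that list bears a different day in its name. The files hold no read counts, the mapped reads stated by the study were not used, and whether edges, fold enrichment and p come from pooled reads or 1 replicate is not given in the sources used here.

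Peaks overlapping by at least 1 bp were joined, and the member rule was applied as given above. The linking was tested on simulated lists whose sites lay far apart, with the peaks of each site on a common centre. The joining of close neighbours or of shifted peaks was therefore not tested. Wilson intervals (95%) cover counting over regions only, not differences between animals. Regions are not replicates, and no p-value was computed. Right and left follow the coordinates. Members, lists and measures were chosen with earlier results of these data known. Named regions are the 10 members with the largest larval ratio among those with a global IDR of at most 0.01 in all lists, the 5 with the highest lowest rank, and the 3 on each side of the threshold. The gene table at hand belongs to another assembly, so start sites, gene lists and motifs were not used. Scripts ran in Python 3.11.15 with pandas 2.3.3, numpy 2.4.6 and scipy 1.17.1. Plots were drawn in matplotlib 3.10.9.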

Additional observations from a re-analysis of the deposited data

How the results depend on the processing

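The number of members followed the rule and the length of the lists. It was 855 when larval peaks had to be 10% wider, 310 for 20% and 148 for 30%. It was 299 in lists with a global IDR of at most 0.01 (269 of the 477 members among them), 282 with 46248 peaks in each list (254) and 212 in the top 50% of each list (166). The settings on the lists leave fewer peaks by construction. Stricter linking gave 535 regions when overlaps had to cover 50% of each peak and 549 with summits within 100 bp, numbered chromosomes alone gave 477, and a lower limit of 0.8 on the 37dph to 3dpf ratio gave 384, all within 1.5 times of 477.

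In the lists limited by IDR, the median widths were 238, 361, 334 and 214 bp from 3dpf to 37dph, the fold enrichments 6.24, 5.89, 5.98 and 5.57, and the ranks 71.1, 78.9, 76.3 and 67.6, and 83.6% of the members were extended on the same side in both comparisons. With 30% wider larval peaks the widths were 245, 434, 395 and 220 bp, and the share on the same side was 83.8%. The fold enrichments of this setting were 5.18, 4.95, 4.94 and 4.56 in stage order, and the ranks 51.7, 65.5, 57.6 and 44.9. With the lower limit of 0.8 the widths were 216, 308, 293 and 210 bp in stage order. The fold enrichments were then 5.18, 5.22, 5.26 and 4.92, the ranks 51.7, 69.3, 65.1 and 55.2, and the share on the same side 75.9%. The regions of this setting are a part of the same members and regions are not replicates, so no stability is read from this. Ranked among the single-peak regions alone, added after the data were seen, the median ranks were 25.3, 43.5, 44.4 and 34.6. The cause of these changes was not tested beyond the construction of each setting.

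No paired analysis was possible because only 1 list stands for both replicates of a stage, and leaving out a replicate was not possible for the same reason. Alternatives for start sites and motifs were not run. The part of sequencing depth in the width differences was not tested.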
